A study of Mus musculus with 19 samples.

Results

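The 36 genes described here encode enzymes, regulators and carriers of cholesterol and fatty acid metabolism. They were taken by name from 2 deposited expression tables of mouse hippocampal microglia, each with 23951 genes, and all 36 had a row in both. RNA of cells purified by FACS with CD11b and CD45 was sequenced in 15 libraries, 3 in each of 5 groups. Values are FPKM, fragment numbers scaled for library size and for transcript length, so levels can be compared between genes.

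The 3-month set held 6 libraries from mice 3 months of age that all carried Cx3cr1CreER+/-, a tamoxifen-inducible Cre recombinase under the promoter of Cx3cr1, which microglia and some other myeloid cells use. The knockout group also carried PU.1 fl/fl, floxed alleles of the gene Spi1 that encodes the myeloid transcription factor PU.1, and the control group did not. Tamoxifen was given to both for 5 days at 50 mg/kg, with collection 1 week after. The 4.5-month set held 9 libraries from Cx3cr1CreER+/- mice in 3 groups: CK controls, CK-p25 mice, and CK-p25 mice with PU.1 fl/fl, called CK-p25 PU.1 cKO below (cKO, conditional knockout). In CK-p25 mice, p25, an activator of the kinase Cdk5, is induced in forebrain neurons. All 3 groups had the same tamoxifen course when p25 was induced, at 3 months of age, with collection 6 weeks after, at 4.5 months.

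The labels of the 3-month set contradict each other. The titles and descriptions tie the columns named MIC_PU1 to samples titled as controls and the columns named MIC_CX3CR1 to samples titled as knockouts, while the source names point the other way. Spi1 measured 261, 105 and 248 FPKM in the libraries labelled control and 409, 338 and 337 FPKM in those labelled PU.1 cKO. The targeted gene was thus lower in the libraries labelled control, without overlap, although the difference of 0.92 ± 0.35 (SE, log2 scale) did not pass the test (adjusted p = 0.0853). The groups are called "labelled control" (MIC_PU1 columns) and "labelled PU.1 cKO" (MIC_CX3CR1 columns) throughout, and the other reading of the labels turns the sign of every 3-month difference. In the 4.5-month set its level was 256, 230 and 251 FPKM in the CK libraries, 251, 208 and 298 FPKM in the CK-p25 libraries and 165, 152 and 224 FPKM in the CK-p25 PU.1 cKO libraries.

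Cells make cholesterol from acetyl-CoA through mevalonate, isoprenoids, squalene and lanosterol. When sterols in the endoplasmic reticulum are low, the escort protein Scap carries the membrane-bound factors SREBP1 and SREBP2 (genes Srebf1 and Srebf2) to the Golgi, where proteases free the part that enters the nucleus and activates sterol and fatty acid genes; Insig proteins hold Scap back when sterols are plentiful. Microglia take up lipid-rich debris such as myelin, release its cholesterol in lysosomes with Lipa, Npc1 and Npc2, and store the excess as esters made by Soat1. At the sterol and fatty acid genes that it activates, SREBP is known to act with other factors, among them NF-Y, which binds CCAAT.

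Promoter sequences of 28 of the 36 genes were found in RefSeq (GRCm38.p6), as windows from 250 bases before to 50 bases after a transcription start. No window was available for Fdps, Fdft1, Sqle, Stard4, Npc1, Scd1, Scd2 and Fads1, so the counts by role leave these genes out. At least 1 CCAAT, on either strand, stood in the windows of 23 of these 28 genes (82.1%), against 41.1% of 27025 genes with a window and 43.4% of the 8143 genes tested at 3 months that had one. By role, it was found in 5 of 6 genes of the mevalonate steps, 9 of 9 genes from squalene to cholesterol, 4 of 5 regulators, 3 of 3 genes of transport, storage and lysosomal release, and 2 of 5 fatty acid genes. The sterol response element core TCACNCCAC was found in 1 of the 28 genes, Hmgcs1 (3.57%, against 1.44% of all genes). The E-box CACGTG stood in Hsd17b7, Sc5d, Dhcr7, Insig1 and Scap (17.9%, against 8.09% of all genes and 12.2% of those tested). The PU.1 box GAGGAAGT stood in Acat2, Scap and Elovl6 (10.7%, against 3.69% of all genes and 4.18% of those tested). All 4 motifs were searched on both strands, and none contains another. A match describes the letters of a window and is not evidence of binding. The 250 bases before the start are shown for 3 genes that differed at 3 months (the enzyme genes Idi1 and Cyp51 and the feedback gene Insig1). They are also shown for Soat1 and Npc2, with the 2 largest log2 differences between CK-p25 and CK that passed the test. Capitals mark a CCAAT, its reverse complement ATTGG, or CACGTG. The stretches are Idi1 chr13:8885356-8885605 on the plus strand, Cyp51 chr5:4104698-4104947 on the minus strand, Insig1 chr5:28071162-28071411 on the plus strand, Soat1 chr1:156474329-156474578 on the minus strand and Npc2 chr12:84773113-84773362 on the minus strand.
Idi1: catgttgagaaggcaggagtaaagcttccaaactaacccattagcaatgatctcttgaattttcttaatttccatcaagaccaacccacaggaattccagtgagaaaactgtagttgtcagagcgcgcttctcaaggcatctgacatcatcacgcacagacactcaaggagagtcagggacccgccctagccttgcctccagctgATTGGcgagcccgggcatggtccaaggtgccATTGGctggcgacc
Cyp51: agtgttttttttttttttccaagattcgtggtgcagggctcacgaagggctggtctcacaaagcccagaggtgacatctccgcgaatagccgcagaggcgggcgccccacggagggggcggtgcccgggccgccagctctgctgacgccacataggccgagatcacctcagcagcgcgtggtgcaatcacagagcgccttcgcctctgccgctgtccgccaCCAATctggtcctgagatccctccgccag
Insig1: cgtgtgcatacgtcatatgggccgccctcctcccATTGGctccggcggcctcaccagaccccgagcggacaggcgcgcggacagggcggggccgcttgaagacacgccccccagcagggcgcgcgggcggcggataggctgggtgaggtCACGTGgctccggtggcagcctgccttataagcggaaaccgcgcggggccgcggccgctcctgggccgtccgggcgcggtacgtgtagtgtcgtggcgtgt
Soat1: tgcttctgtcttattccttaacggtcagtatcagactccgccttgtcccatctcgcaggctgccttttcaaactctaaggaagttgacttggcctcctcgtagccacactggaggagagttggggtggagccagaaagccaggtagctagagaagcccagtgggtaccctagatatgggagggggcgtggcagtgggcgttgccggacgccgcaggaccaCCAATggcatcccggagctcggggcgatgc
Npc2: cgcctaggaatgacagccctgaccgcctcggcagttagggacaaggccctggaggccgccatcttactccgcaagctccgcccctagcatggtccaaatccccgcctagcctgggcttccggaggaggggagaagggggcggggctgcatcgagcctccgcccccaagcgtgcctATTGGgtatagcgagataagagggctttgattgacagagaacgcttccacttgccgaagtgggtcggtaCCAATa
Idi1 and Npc2 each hold 2 CCAAT matches in this stretch, Cyp51 and Soat1 hold 1, and Insig1 holds 1 beside a CACGTG.

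All 8 microglia marker genes examined (among them P2ry12 and Tmem119) averaged at least 1 FPKM in every group. Their summed level ran from 8034 to 14702 FPKM in labelled control and from 27886 to 32434 FPKM in labelled PU.1 cKO, and from 25324 to 27712 FPKM in CK, 16530 to 18388 FPKM in the CK-p25 libraries and 15146 to 17139 FPKM in the CK-p25 PU.1 cKO libraries. Between 10140 and 10954 genes reached 1 FPKM in a library, and the number of reads behind the values is unknown. CK-p25 replicate 3 is the only one of the 9 libraries of the 4.5-month set whose sequence file carries another prefix (180620Tsa against 160706Tsa), and 42.1% of its genes are listed at 0 against 31.6% to 36.4% in the other 8. Results that rest on it are given with and without it.

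Genes that averaged 1 FPKM or more over a table were tested, 33 of the 36 at 3 months and 32 at 4.5 months. Elovl6, an elongase, and Scd1, a stearoyl-CoA desaturase, fell under this level in both tables and the sterol carrier Stard4 at 4.5 months. Hmgcs1, which encodes HMG-CoA synthase, is listed at 0 in all 15 libraries, a value that can be a failed estimate. Npc2 (120 ± 6.98 FPKM, SD, n = 3), Acly (76 ± 1.43 FPKM) and Lipa (74.8 ± 1.81 FPKM) were the most abundant of the 36 in CK, and Sqle (1.52 ± 0.162 FPKM) and Acaca (0.964 ± 0.271 FPKM) were among the lowest.

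**Figure D1:**
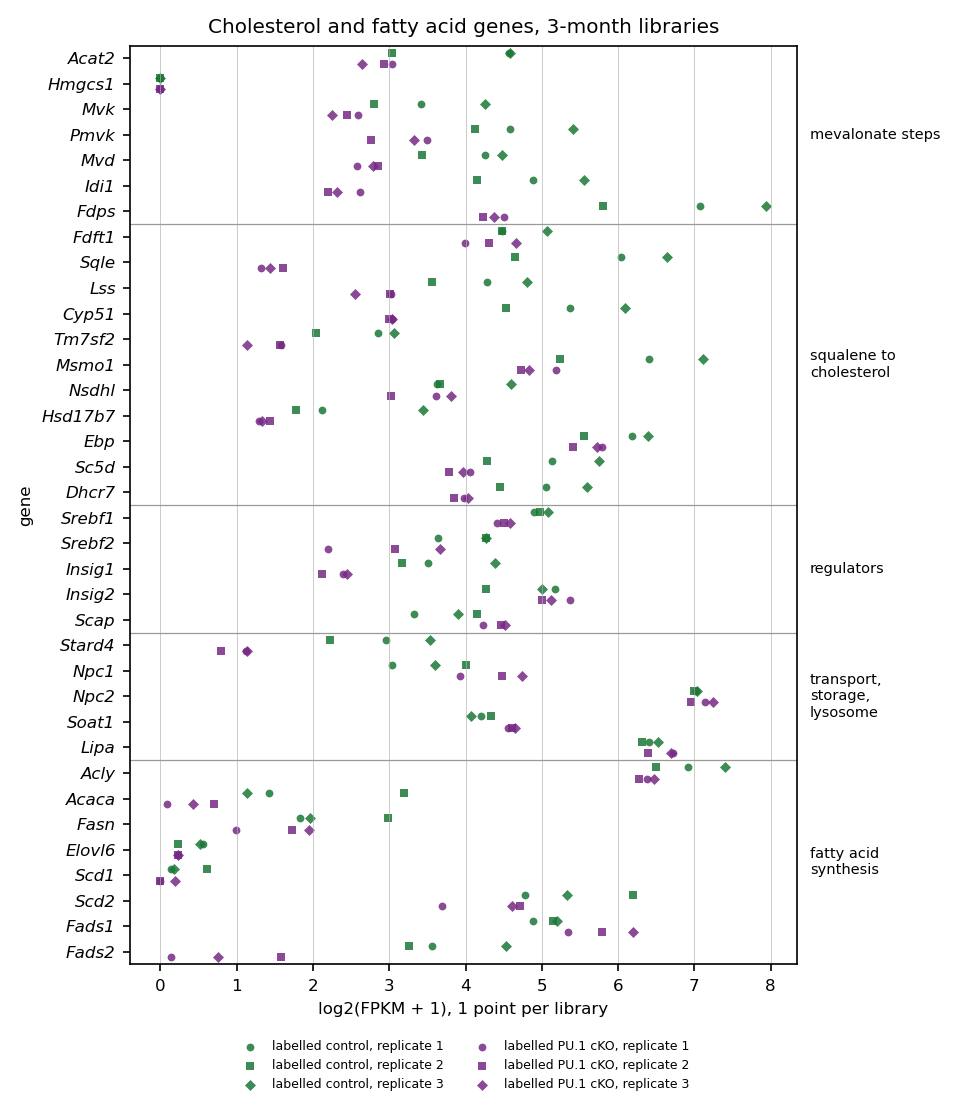
Level of each of the 36 genes in the 6 libraries of the 3-month set, as log2(FPKM + 1), grouped by role from the mevalonate steps at the top to the fatty acid genes at the bottom; color shows the group and the symbol shape the replicate. Sqle lies between 24.1 and 99.2 FPKM in the libraries labelled control and between 1.49 and 2.05 FPKM in those labelled PU.1 cKO, while Npc2 and Lipa overlap.

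The 3-month comparison asks how loss of PU.1 changes microglia of adult mice. Of the 33 tested genes, 14 (42.4%) were lower in the libraries labelled PU.1 cKO at an adjusted p under 0.05 and 0 were higher. Among all 10845 genes tested, 17.8% were lower and 12.4% were higher. The median log2 difference, labelled PU.1 cKO minus labelled control, was -1.09 over the 33 genes and -0.03 over all genes. The 14 were Pmvk, Mvd, Idi1, Fdps, Sqle, Lss, Cyp51, Tm7sf2, Sc5d, Dhcr7, Srebf1, Insig1, Stard4 and Fads2. Fads2 averaged under 1 FPKM in labelled PU.1 cKO and passed the filter on low values through labelled control. In bulk RNA of sorted cells, fewer cells of a type and less RNA per cell cannot be told apart. Libraries of the 2 groups did not overlap for 23 of the 33 genes, 20 of them lower in labelled PU.1 cKO; 48.8% of all genes tested were also without overlap.

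The mevalonate steps build isoprenoid units from acetyl-CoA, and 4 of their 6 tested genes were lower (66.7%, against 17.8% of all genes). Fdps, whose enzyme joins isoprenoid units into farnesyl diphosphate, measured 134, 54.9 and 245 FPKM in labelled control and 21.6, 17.7 and 19.7 FPKM in labelled PU.1 cKO. The labelled control libraries were all above the others, and spread over a much wider range. On the log2 scale Fdps differed by -2.58 ± 0.48 (adjusted p = 0.00816). Idi1, the isomerase of isopentenyl diphosphate, measured 28.7, 16.7 and 46 FPKM against 5.13, 3.58 and 3.97 FPKM, a log2 difference of -2.49 ± 0.35 (adjusted p = 0.00281). These groups did not overlap either. Pmvk, phosphomevalonate kinase, differed by -1.51 ± 0.35 and Mvd, mevalonate diphosphate decarboxylase, by -1.32 ± 0.29. The Pmvk call passed in 3 of 6 fits that left out 1 library and the Mvd call in 2 of 6. Mvk, mevalonate kinase, at -1.06 ± 0.35 (adjusted p = 0.0584), and Acat2, the cytosolic acetoacetyl-CoA thiolase, at -1.19 ± 0.42 (adjusted p = 0.0666), did not pass.

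Between squalene and cholesterol, 6 of 11 genes were lower (54.5%, against 17.8% of all genes), and the log2 difference was negative for all 11. The largest difference among the 33 tested genes was that of Sqle, squalene epoxidase, a rate-limiting oxygen-dependent step. Sqle measured 64.8, 24.1 and 99.2 FPKM in labelled control and 1.49, 2.05 and 1.7 FPKM in labelled PU.1 cKO. Every labelled control library was far above every library labelled PU.1 cKO, and the ratio of the means was 35.8. The log2 difference was -4.32 ± 0.46 (adjusted p = 0.00104). Cyp51, lanosterol demethylase, measured 40.2, 22.2 and 66.9 FPKM against 7.23, 6.96 and 7.19 FPKM (-2.31 ± 0.36, adjusted p = 0.0042). Again the groups did not overlap, and the 3 low libraries lay close together. Smaller differences passed for Lss, lanosterol synthase (-1.35 ± 0.33), Tm7sf2, a sterol reductase (-1.22 ± 0.31), Sc5d, a sterol desaturase (-1.12 ± 0.35, adjusted p = 0.0489), and Dhcr7, the reductase of 7-dehydrocholesterol (-1.08 ± 0.28). The calls of Lss, Tm7sf2, Sc5d and Dhcr7 each passed in only 1 of 6 fits that left out 1 library. In other alternatives Lss passed in 9 of 9, Dhcr7 in 8 of 9, Tm7sf2 in 7 of 8 and Sc5d in 6 of 9. The methylsterol oxidase gene Msmo1 fell short of the threshold at -1.33 ± 0.44 (adjusted p = 0.0555), although its groups did not overlap. Fdft1, squalene synthase, measured 21.2, 21.3 and 32.6 FPKM against 14.9, 18.8 and 24.2 FPKM, an overlap (-0.35 ± 0.25, adjusted p = 0.303). The sterol isomerase gene Ebp (-0.40 ± 0.25), Nsdhl (-0.48 ± 0.33) and Hsd17b7 (-1.09 ± 0.42), which act in sterol demethylation, did not pass.

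Among the 5 regulators, Srebf1 and Insig1 were lower in labelled PU.1 cKO (40%, against 17.8% of all genes). Insig1, itself a sterol-regulated gene, measured 10.4, 7.94 and 20 FPKM against 4.25, 3.35 and 4.43 FPKM (-1.37 ± 0.32, adjusted p = 0.0181). Srebf1 measured 28.7, 30.5 and 32.8 FPKM against 20.2, 21.6 and 22.9 FPKM (-0.49 ± 0.15, adjusted p = 0.0475). For both genes the groups did not overlap. The Srebf1 call passed in 1 of 6 fits that left out 1 library and in 2 of 9 other alternatives, and the Insig1 call in 2 of 6 and 9 of 9. Srebf2, whose product drives most sterol enzymes, measured 11.5, 18.3 and 18.3 FPKM against 3.57, 7.42 and 11.6 FPKM. Its groups overlapped by 1 library and the difference of -1.09 ± 0.38 did not pass (adjusted p = 0.0659). Insig2 (0.35 ± 0.26) and Scap (0.61 ± 0.24) had positive differences that did not pass.

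Of the 5 genes of transport, storage and lysosomal release, 1 was lower (20%, against 17.8% of all genes) and 4 did not pass. Stard4, a cytosolic sterol carrier, measured 6.79, 3.68 and 10.6 FPKM in labelled control and 1.18, 0.736 and 1.19 FPKM in labelled PU.1 cKO (-1.89 ± 0.35, adjusted p = 0.00757), without overlap. The lysosomal genes had differences of 0.83 ± 0.31 (Npc1), 0.10 ± 0.16 (Npc2) and 0.19 ± 0.17 (Lipa), and Soat1, the cholesterol esterifying enzyme, 0.41 ± 0.16; none of these 4 passed. The 95% intervals were -0.28 to 0.47 for Npc2 and -0.21 to 0.59 for Lipa. After quantile normalization Soat1, Lipa and Fads1 passed as higher, after median centring Soat1 and Fads1; the median difference of all genes was 0.09 and 0.07 in those fits against -0.03.

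Of the 6 tested fatty acid genes, 1 was lower (16.7%, against 17.8% of all genes). Fads2, a desaturase of polyunsaturated fatty acid synthesis, measured 10.8, 8.58 and 22.1 FPKM in labelled control and 0.097, 2 and 0.684 FPKM in labelled PU.1 cKO. Every labelled control library was above every other, and the log2 difference was -2.96 ± 0.45 (adjusted p = 0.00392). Fads1, the next desaturase of that route, measured 28.6, 34.4 and 35.6 FPKM against 39.4, 54.2 and 72.5 FPKM (0.70 ± 0.24, adjusted p = 0.0649). Its groups were apart in the other direction, without passing. Acaca, acetyl-CoA carboxylase, measured 1.69, 8.15 and 1.2 FPKM against 0.0574, 0.631 and 0.347 FPKM (-1.51 ± 0.54, adjusted p = 0.0711). Acaca and Fads2 averaged 1 FPKM or more in labelled control alone and passed the filter on low values through it. Fasn (-0.70 ± 0.39), the fatty acid synthase, Acly (-0.57 ± 0.24), ATP citrate lyase, and Scd2 (-1.10 ± 0.41), the desaturase of brain, did not pass.

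Within the labelled control group the sterol enzymes moved together. Replicate 3 held the highest value of the 3 libraries for 17 of 17 tested sterol enzyme genes, as it did for 43.3% of all genes tested. Replicate 2 held the lowest for 15 of the 17, against 45.7% of all genes. Summed over the 18 enzyme genes, the level was 623, 329 and 982 FPKM in labelled control and 220, 183 and 211 FPKM in labelled PU.1 cKO. All 3 labelled control sums were above the others, replicate 2 by the least. The fatty acid genes differed in this respect, since Acaca, Fasn and Scd2 were highest in labelled control replicate 2. The summed FPKM of all genes was 556826, 449784 and 622613 in labelled control, in the same order as the enzyme sums. In labelled PU.1 cKO it was 578197, 511196 and 557220.

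Of the 14 calls, 6, those of Cyp51, Fads2, Fdps, Idi1, Sqle and Stard4, passed in each of the 6 fits that left out 1 library. Fads2 is the one among them that passed the filter on low values through labelled control alone. The number of calls depended on the libraries: 24 (21 lower, 3 higher) passed without labelled control replicate 2, and 6 without labelled control replicate 1. Calls over all genes were 42.9% and 18% in those fits, against 30.1% with all libraries. Sums of microglia, border macrophage, astrocyte and endothelium markers did not overlap between the groups, while those of neutrophil, monocyte and oligodendrocyte markers did. Microglia markers summed to 8034 to 14702 FPKM in labelled control and to 27886 to 32434 FPKM in labelled PU.1 cKO. Of these 8 genes, 7 were higher in labelled PU.1 cKO (87.5%, against 12.4% of all genes). Endothelium markers summed to 6.21 to 16.2 FPKM in labelled control and to 17.3 to 20.1 FPKM in labelled PU.1 cKO. Border macrophage markers, all 6 at a mean of 1 FPKM or more, summed to 474 to 1528 FPKM in labelled control, highest in replicate 2, and to 261 to 335 FPKM in labelled PU.1 cKO. The 4 neutrophil markers in the table summed to 13990 FPKM in labelled control replicate 1 and to between 80.6 and 98.1 FPKM in the other labelled control libraries, and monocyte markers to 949 FPKM in replicate 1. In labelled PU.1 cKO the sums were 41.4 to 315 FPKM for neutrophils and 7.07 to 39.1 FPKM for monocytes. Without replicate 1, Sqle differed by -4.19 ± 0.58 (adjusted p = 0.01) and Idi1 by -2.47 ± 0.44 (adjusted p = 0.02). Astrocyte markers summed to 19.6 to 46.6 FPKM in labelled control and 75.9 to 80.4 FPKM in labelled PU.1 cKO, and oligodendrocyte markers to 71.4 to 102 and 97.1 to 160.1 FPKM. The part of any of these cells in the differences was not tested.

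**Figure D2:**
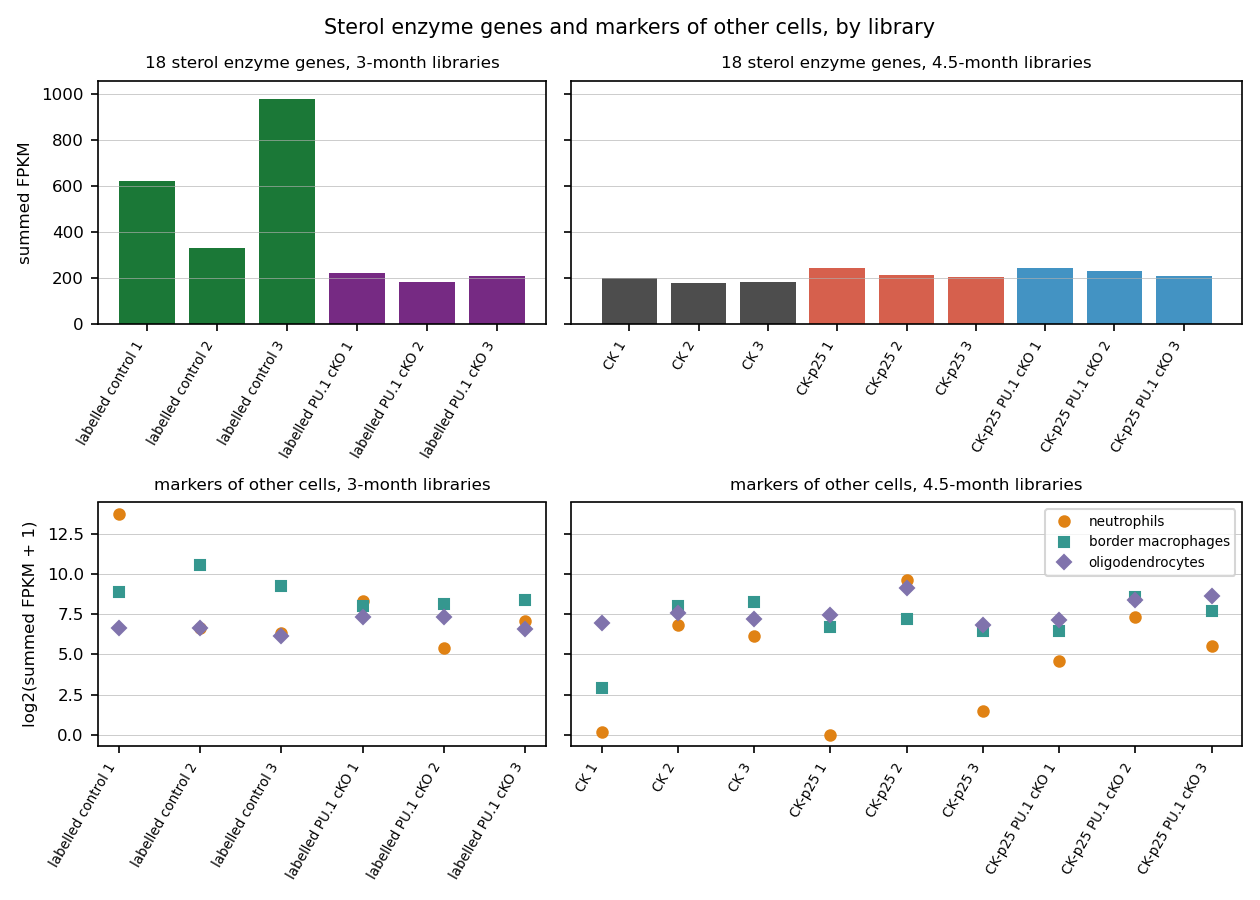
Summed FPKM of the 18 sterol enzyme genes per library (upper panels, bars from 0) and log2(summed FPKM + 1) of neutrophil, border macrophage and oligodendrocyte markers (lower panels), for the 3-month set on the left and the 4.5-month set on the right. In the 3-month set the enzyme sum is 329 to 982 FPKM in labelled control and 183 to 220 FPKM in labelled PU.1 cKO. The neutrophil sum of that set is highest in labelled control replicate 1. In the 4.5-month set the enzyme sum is 178 to 245 FPKM, and the 2 sets are not compared with each other.

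Other genes of the pathway were taken as 4 lists of 49 genes, of which 43 were tested at 3 months; 9 were lower (20.9%, against 17.8% of all genes) and 7 were higher (16.3%, against 12.4%) in labelled PU.1 cKO. Their median difference was -0.03, that of all genes. In the list of sterol synthesis and uptake, 5 of 12 tested genes were lower and 1 was higher. Lbr, a sterol reductase and protein of the nuclear envelope, measured 71.9, 44.8 and 61.7 FPKM in labelled control and 28, 25.2 and 30.9 FPKM in labelled PU.1 cKO (-1.04 ± 0.21, adjusted p = 0.0112). Tmem97, a sterol-regulated membrane protein gene, measured 83.1, 42.4 and 129 FPKM against 26.4, 23.6 and 21.8 FPKM (-1.65 ± 0.37, adjusted p = 0.0159). Neither overlapped between groups, and Ggps1, an enzyme of the isoprenoid branch, was higher (0.60 ± 0.16).

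In the list of sterol sensing, oxysterols and efflux, 1 of 10 tested genes was lower and 2 were higher. Of all genes, 17.8% were lower and 12.4% higher. Ch25h, which makes 25-hydroxycholesterol, an inhibitor of SREBP processing, measured 69.6, 82.7 and 139 FPKM in labelled control and 1.21, 0.198 and 2.78 FPKM in labelled PU.1 cKO (-5.45 ± 0.44, adjusted p = 0.000361). The groups were far apart. Cyp27a1, a sterol hydroxylase (1.72 ± 0.25), and Mylip, a ubiquitin ligase of sterol homeostasis (0.97 ± 0.25), were higher. Among genes of fatty acid supply, Acsl5 (-1.08 ± 0.24) and Hsd17b12 (-0.97 ± 0.22) were lower and Lpcat3 (0.79 ± 0.20) was higher, of 13 tested. Among 8 genes of lipid storage, the droplet protein gene Plin2 was lower (-1.52 ± 0.19) and the lipid phosphatase and lipase genes Lpin2 (1.34 ± 0.31), Pnpla2 (0.67 ± 0.21) and Lipe (1.61 ± 0.21) were higher.

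**Figure D3:**
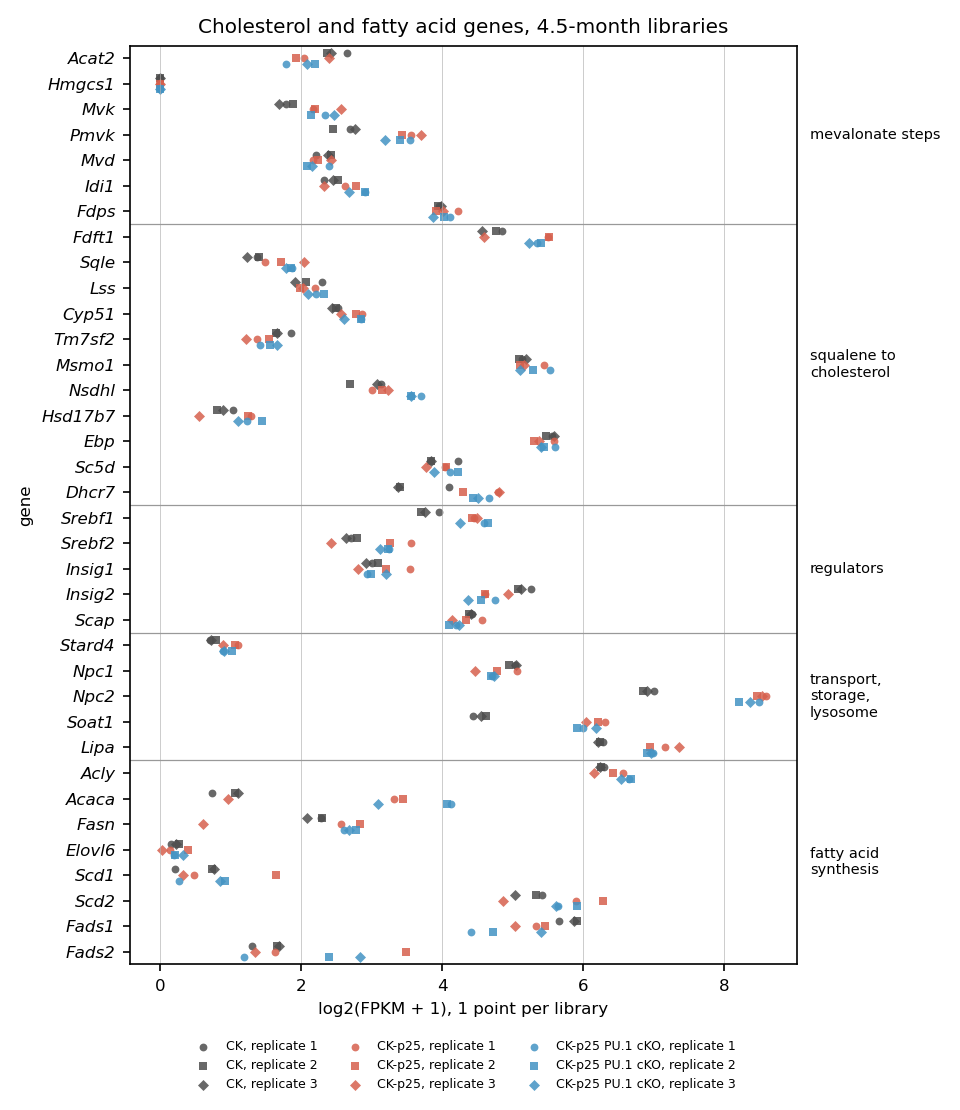
Level of each of the 36 genes in the 9 libraries of the 4.5-month set, as log2(FPKM + 1), grouped by role; color shows the group and the symbol shape the replicate. Npc2, Soat1 and Lipa lie higher in all 6 libraries of CK-p25 and CK-p25 PU.1 cKO than in the 3 CK libraries, and CK-p25 replicate 3 (diamond) lies apart from the other CK-p25 libraries for Acaca and Fasn.

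CK-p25 was compared with CK to show how microglia differ while forebrain neurons degenerate. Of 32 tested genes, 7 were higher in CK-p25 and 1 was lower, against 17.6% higher and 13.7% lower among all 10894 genes tested. These counts are 21.9% and 3.13% of the 32, so the share higher was near that of all genes and the share lower was under it. The median difference was 0.15 over the 32 genes and -0.00025 over all genes. Groups did not overlap for 12 of the 32 genes, against 46.5% of all genes. Of the 4 tested genes of transport, storage and lysosomal release, 3 were higher.

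Soat1, which esterifies cholesterol for storage, measured 20.6, 23.5 and 22.5 FPKM in CK and 78.1, 72.9 and 64.9 FPKM in the CK-p25 libraries. The ratio of the means was 3.24, with no overlap (1.65 ± 0.10 on the log2 scale, adjusted p = 3.08e-05). Npc2, the soluble lysosomal sterol carrier, measured 128, 114 and 119 FPKM in CK and 387, 354 and 369.6 FPKM in the CK-p25 libraries (1.61 ± 0.09, adjusted p = 2.14e-05). Lipa, the lysosomal acid lipase, measured 76.7, 74.5 and 73.2 FPKM against 142, 123 and 163 FPKM (0.91 ± 0.10, adjusted p = 0.000442). Each CK-p25 library was above each CK library for these 3 genes. Npc1, the membrane partner of Npc2, measured 31.6, 29.7 and 32.1 FPKM against 32.4, 26.5 and 21.1 FPKM, an overlap. Its difference was -0.23 ± 0.14 (95% interval -0.55 to 0.08, adjusted p = 0.231). The calls of Soat1, Npc2 and Lipa passed in all 19 alternative fits.

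Of the 17 tested sterol enzymes, 3 were higher (17.6%, the same share as over all genes) and 0 were lower in CK-p25. Pmvk measured 5.42, 4.44 and 5.76 FPKM in CK and 10.8, 9.79 and 11.9 FPKM in the CK-p25 libraries (0.93 ± 0.13, adjusted p = 0.00113). Dhcr7, the last reductase of its branch, measured 16.1, 9.53 and 9.31 FPKM against 26.7, 18.5 and 27 FPKM (1.01 ± 0.22, adjusted p = 0.00918). Neither gene overlapped between groups. Mvk was higher by 0.52 ± 0.15 (adjusted p = 0.0287). The Mvk call was lost in 3 of 9 fits that left out 1 library and in 2 of 9 others. Of the 3 genes with the largest differences among the sterol enzymes at 3 months, Sqle measured 1.58, 1.64 and 1.33 FPKM in CK and 1.79, 2.29 and 3.11 FPKM in the CK-p25 libraries (0.42 ± 0.16, adjusted p = 0.0847). Fdps measured 14.5, 14.3 and 14.9 FPKM against 17.6, 14.1 and 15.1 FPKM (0.09 ± 0.10, 95% interval -0.15 to 0.32). Idi1 measured 3.98, 4.76 and 4.44 FPKM against 5.13, 5.83 and 3.98 FPKM (0.14 ± 0.14, 95% interval -0.18 to 0.46). The groups overlapped for Fdps and Idi1 and not for Sqle. The summed level of the 18 enzyme genes was 199, 178 and 183 FPKM in CK. It was 242, 213 and 204 FPKM in the CK-p25 libraries and 245, 229 and 210.1 FPKM in the CK-p25 PU.1 cKO libraries. The summed FPKM of all genes was higher in each p25 library as well. It ran from 475007 to 500482 in CK, from 573405 to 650063 in the CK-p25 libraries and from 545930 to 601177 in CK-p25 PU.1 cKO. The enzyme sums were not scaled to these totals.

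Srebf1 measured 14.5, 12 and 12.5 FPKM in CK and 20.9, 20.4 and 21.5 FPKM in the CK-p25 libraries (0.65 ± 0.12, adjusted p = 0.00462), with no overlap. Srebf2 measured 5.49, 5.92 and 5.18 FPKM against 10.7, 8.58 and 4.38 FPKM. Replicate 3 of CK-p25 lay below all CK libraries and the other 2 above them, so the difference of 0.37 ± 0.25 did not pass (adjusted p = 0.292). Insig2, the less sterol-dependent of the Insig genes, measured 37.4, 32.6 and 33.7 FPKM in CK and 23.3, 23.5 and 29.5 FPKM in the CK-p25 libraries (-0.43 ± 0.13, adjusted p = 0.0352). Its groups did not overlap, but the call passed in 3 of 9 fits that left out 1 library. Insig1 (0.18 ± 0.18) and Scap (-0.06 ± 0.11) did not pass.

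Of the 6 tested fatty acid genes 0 passed with all libraries, and 4 passed without CK-p25 replicate 3. Acaca measured 0.653, 1.09 and 1.15 FPKM in CK and 8.94, 9.84 and 0.942 FPKM in the CK-p25 libraries. Fasn measured 3.87, 3.88 and 3.21 FPKM against 4.9, 6.14 and 0.517 FPKM, and Scd2 41.6, 39.2 and 31.8 FPKM against 58.8, 76.6 and 28.1 FPKM. For each of these 3 genes, 2 CK-p25 libraries were above all CK libraries and replicate 3 was below at least 2 of them. With all libraries the differences were 1.61 ± 0.62 for Acaca (adjusted p = 0.0837), -0.22 ± 0.50 for Fasn (adjusted p = 0.778) and 0.42 ± 0.32 for Scd2 (adjusted p = 0.348). Without replicate 3 they were 2.41 ± 0.31 (adjusted p = 0.00134), 0.48 ± 0.12 (adjusted p = 0.016) and 0.83 ± 0.16 (adjusted p = 0.00719). The direction of Fasn thus turned. In that fit 16 of the 32 genes passed (14 higher, 2 lower) and the calls over all genes rose as well, from 31.3% to 41.8%. The added calls were Acaca, Acly, Cyp51, Fasn, Fdft1, Scd2 and Srebf2 (higher) and Acat2 (lower). Replicate 3 was the lowest CK-p25 library for 17 of the 32 genes, against 40.7% of all genes tested. Fads1 measured 49.4, 59.4 and 57.6 FPKM in CK and 39.2, 42.9 and 31.7 FPKM in the CK-p25 libraries (-0.54 ± 0.24, adjusted p = 0.117), without overlap. Fads2 measured 1.45, 2.13 and 2.21 FPKM against 2.08, 10.2 and 1.54 FPKM, high in replicate 2 alone. That library also had the highest sum of oligodendrocyte markers, 557 FPKM against 126 to 193 FPKM in CK, and of astrocyte markers, 402 FPKM against 58.8 to 90.6 FPKM; their part in the values of Fads2, Scd2 and Fasn was not tested. In CK-p25 replicate 1 these sums were 175 and 105 FPKM, and Acaca was at 8.94 FPKM there. The part of these cells in the values of Acaca was not tested either.

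CK-p25 PU.1 cKO was compared with CK as well; the 2 comparisons share the CK libraries, so their values are set side by side without a test of likeness. Of the 32 tested genes, 11 were higher and 2 lower in CK-p25 PU.1 cKO, or 34.4% and 6.25%, against 17.8% higher and 13.3% lower among all genes; the median difference was 0.38 against -0.00097. Groups did not overlap for 23 of the 32, against 58.5% of all genes. Soat1 measured 63, 59.4 and 71.7 FPKM in the CK-p25 PU.1 cKO libraries (1.50 ± 0.10, adjusted p = 4.58e-05), Npc2 361, 296 and 329 FPKM (1.44 ± 0.09, adjusted p = 3.31e-05) and Lipa 127, 119 and 123 FPKM (0.71 ± 0.10, adjusted p = 0.00141). All were above every CK library.

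Among sterol enzymes, 5 of 17 were higher than in CK (29.4%, against 17.8% of all genes) and 0 lower (against 13.3% of all genes). Nsdhl, a sterol dehydrogenase, measured 7.76, 5.48 and 7.4 FPKM in CK and 12, 10.7 and 10.8 FPKM in the CK-p25 PU.1 cKO libraries (0.64 ± 0.13, adjusted p = 0.00678). Pmvk measured 10.7, 9.51 and 8.14 FPKM (0.75 ± 0.13, adjusted p = 0.00317) and Dhcr7 24.2, 20.7 and 21.8 FPKM (0.92 ± 0.22, adjusted p = 0.0137). These 3 genes did not overlap with CK. Mvk (0.53 ± 0.15, adjusted p = 0.0269) and Sqle (0.50 ± 0.16, adjusted p = 0.0465) also passed, but Sqle did so in 2 of 9 fits that left out 1 library and Mvk in 4 of 9. The Dhcr7 call passed in 6 of 9 of those fits. Srebf1 measured 23.1, 24.1 and 18.1 FPKM (0.69 ± 0.12, adjusted p = 0.00327) and was higher, whereas Insig2 measured 25.8, 22.4 and 19.6 FPKM (-0.60 ± 0.13, adjusted p = 0.00925) and was lower. Srebf2, at 8.52, 8.41 and 7.66 FPKM, was above all CK libraries, but its difference of 0.49 ± 0.25 did not pass (adjusted p = 0.171).

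Acaca had the largest difference of the 32 genes. It measured 16.4, 15.8 and 7.49 FPKM in the CK-p25 PU.1 cKO libraries against 0.653, 1.09 and 1.15 FPKM in CK, a ratio of means of 13.8 (2.80 ± 0.62, adjusted p = 0.0102). All libraries were above all CK libraries, and the call passed in all 19 alternative fits. With a mean of 0.964 FPKM in CK, Acaca passed the filter on low values through the p25 groups. Oligodendrocyte markers summed to 138, 334 and 393 FPKM and astrocyte markers to 102, 228 and 268 FPKM in the CK-p25 PU.1 cKO libraries. In CK these sums were 126 to 193 FPKM and 58.8 to 90.6 FPKM. The part of these cells in the values of Acaca was not tested. Acly measured 99.5, 101 and 92 FPKM against 77.6, 75.5 and 74.8 FPKM (0.36 ± 0.11, adjusted p = 0.0372). Fads1 was lower, at 20.3, 25.3 and 41.2 FPKM (-0.97 ± 0.24, adjusted p = 0.0152). Both were without overlap, but Acly passed in 3 of 9 and Fads1 in 6 of 9 fits that left out 1 library. All 9 libraries of the set share 1 estimate of the spread, so CK-p25 replicate 3 enters this comparison too. Without it the differences stayed as they were and 17 genes were higher and 5 lower, while calls over all genes rose from 31.1% to 46.6%; Idi1, Fdft1, Cyp51, Srebf2, Fasn and Scd2 were the added higher ones and Acat2, Scap and Npc1 the added lower ones.

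CK-p25 PU.1 cKO and CK-p25 were compared directly to show what PU.1 deletion changes in the disease model. By limma 0 of the 32 genes, and 0% of all 10894 genes tested, passed in either direction. At an unadjusted p under 0.05 stood 1 of the 32 genes and 6.16% of all genes. That gene was Nsdhl, at 7.05, 7.84 and 8.42 FPKM in the CK-p25 libraries against 12, 10.7 and 10.8 FPKM (0.47 ± 0.13, adjusted p = 0.745). It was also the only one of the 32 without overlap between the groups, as were 9.38% of all genes. The median difference was 0.04 over the 32 genes. Intervals show what the 3 libraries a group could bound: -0.39 to 0.09 for Soat1, -0.39 to 0.04 for Npc2, -0.44 to 0.04 for Lipa, -0.23 to 0.32 for Srebf1 and -0.45 to 0.69 for Srebf2. For Acaca the interval was -0.23 to 2.62 around 1.19, and without CK-p25 replicate 3 the difference was 0.39 ± 0.31 (adjusted p = 0.867). Without that library the differences of Fasn (-0.01 ± 0.12, against 0.69 ± 0.50 with it) and Scd2 (-0.36 ± 0.16, against 0.04 ± 0.32) did not pass either. Spi1 differed by -0.49 ± 0.17 between these groups (adjusted p = 0.745).

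**Figure D4:**
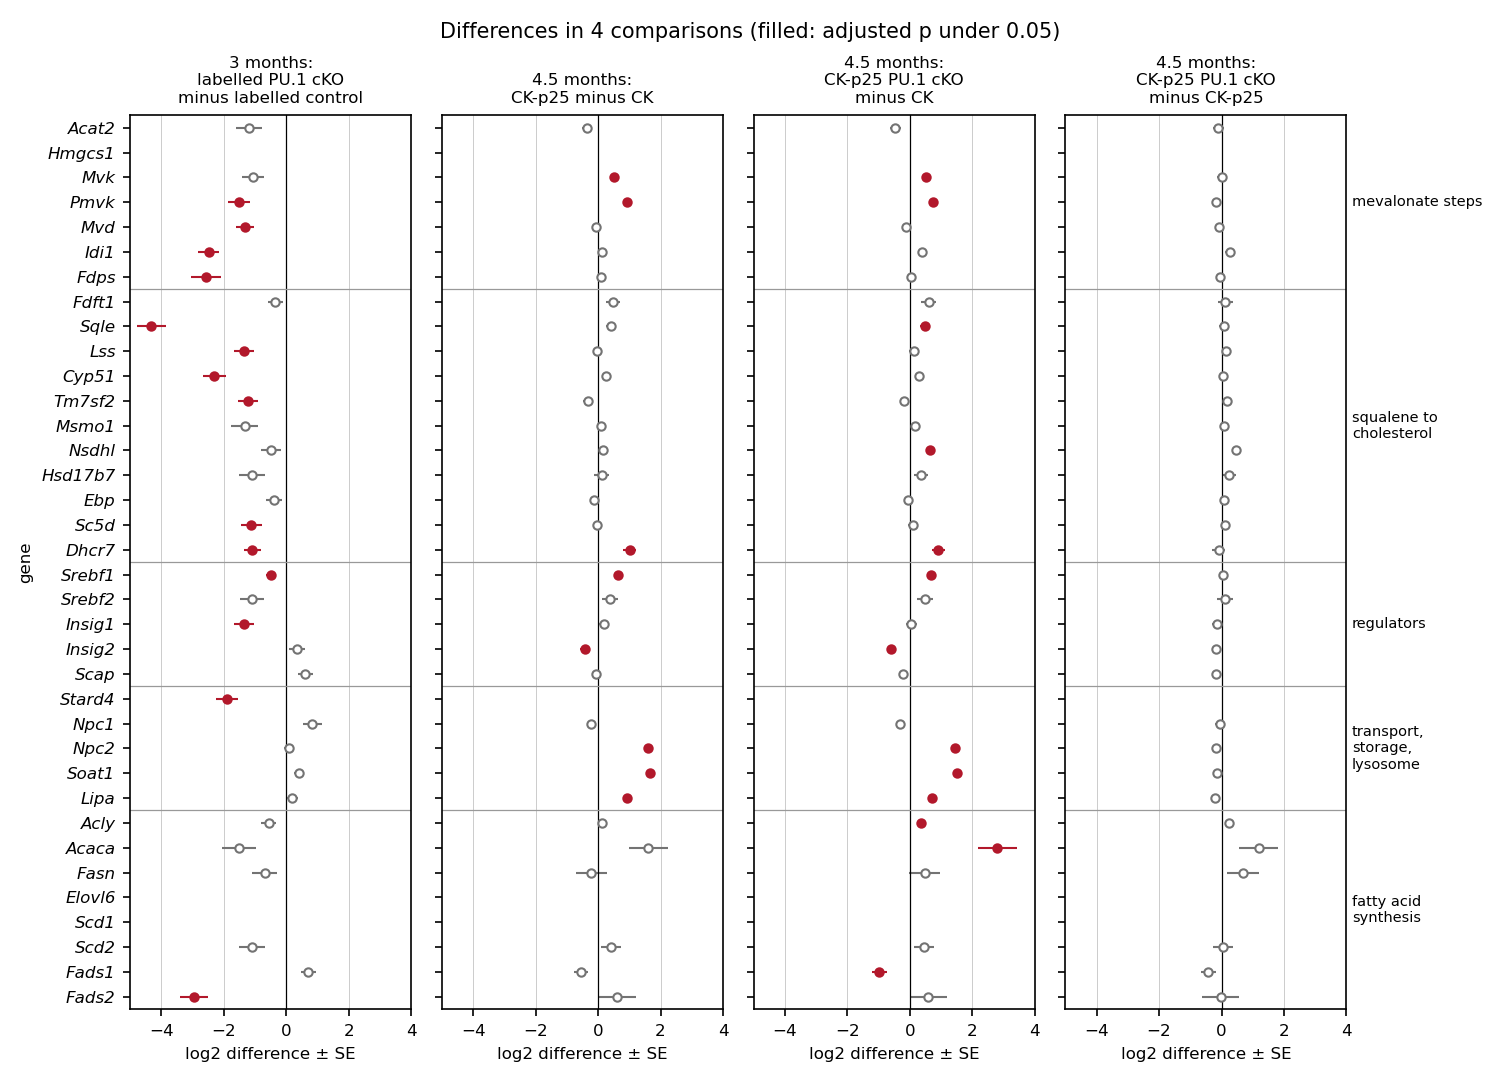
Log2 difference ± SE of each tested gene in the 4 comparisons; filled symbols passed at an adjusted p under 0.05 and open ones did not, and genes without a symbol were not tested. At 3 months 14 filled symbols lie left of 0; for CK-p25 and CK-p25 PU.1 cKO against CK the right side is led by Soat1, Npc2 and, in the latter, Acaca; in the last panel 0 symbols are filled.

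Of the 49 other pathway genes, 43 were tested at 4.5 months; 11 were higher and 10 lower in CK-p25 than in CK (25.6% and 23.3%, against 17.6% and 13.7% of all genes). In CK-p25 PU.1 cKO 9 were higher and 9 lower than in CK (20.9% each, against 17.8% and 13.3%). Ch25h measured 0.924, 1.86 and 1.57 FPKM in CK, 110.0, 89.6 and 76.2 FPKM in the CK-p25 libraries and 153, 92.5 and 62.2 FPKM in the CK-p25 PU.1 cKO libraries (5.25 ± 0.31 and 5.32 ± 0.31 against CK). Every library of the p25 groups was far above CK. Nceh1, which hydrolyses cholesterol esters, measured 8.21, 6.16 and 5.77 FPKM in CK, 61.4, 57.9 and 45.9 FPKM in the CK-p25 libraries and 65.2, 66.8 and 49.1 FPKM in the CK-p25 PU.1 cKO libraries (2.86 ± 0.17 and 2.99 ± 0.17). Again there was no overlap with CK. In lipid storage, 2 of 8 genes were higher in both comparisons, Plin2 (1.58 ± 0.16 and 1.76 ± 0.16) and Dgat2, an enzyme of triglyceride synthesis (2.61 ± 0.37 and 1.59 ± 0.37). Another 2 of the 8 were lower in each: Lpin2 in both (-0.57 ± 0.07 and -0.63 ± 0.07), Gpam in CK-p25 (-0.74 ± 0.20) and Lpin1 in CK-p25 PU.1 cKO (-0.73 ± 0.15). The median of the list was -0.22 and -0.32. In sterol synthesis and uptake, 3 of 11 tested genes were lower in CK-p25, Lbr (-1.43 ± 0.10), Erlin1 (-0.54 ± 0.11) and Ggps1 (-0.44 ± 0.12), and 0 were higher. In CK-p25 PU.1 cKO, Lbr (-1.16 ± 0.10) and Erlin1 (-0.57 ± 0.11) were among 3 genes of the 11 that were lower than in CK, and 1 was higher. In sterol sensing, oxysterols and efflux, 5 of 11 tested genes were higher in CK-p25 and 2 were lower. In CK-p25 PU.1 cKO 3 of these 11 were higher and 2 lower. The efflux transporter gene Abcg1 was higher in both (0.59 ± 0.15 and 0.64 ± 0.15). Of 13 tested genes of fatty acid supply, 4 were higher and 3 lower in CK-p25. In CK-p25 PU.1 cKO 3 of these 13 were higher and 2 lower. Lpcat3, a phospholipid acyltransferase, was lower in both (-0.84 ± 0.11 and -1.16 ± 0.11), while Acsl5 (0.68 ± 0.13 and 0.62 ± 0.13) and Hsd17b12 (0.50 ± 0.11 and 0.49 ± 0.11) were higher. Between CK-p25 PU.1 cKO and CK-p25, 0 of the 43 passed and 5 had an unadjusted p under 0.05, as did 6.16% of all genes.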

How the data were processed

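FPKM values of 15 RNA libraries were deposited by the authors in 2 tables; they used TopHat, Bowtie, Cufflinks 2.0.0 and mm9, per the submitters' processing notes. The cDNA and tagmentation kits in the labels do not mark strand. Columns were matched to samples by the descriptions. A further 4 chromatin samples were not analysed here. The genes and lists were chosen with earlier results of these data known. All 36 genes are accounted for by role, in full where they passed a comparison; other pathway genes are named only where they passed, and some that passed are not reported here. Groups were compared on log2(FPKM + 1) with limma 3.58.1 (R 4.3.3, variance trend, two-sided, Benjamini-Hochberg adjustment over all genes tested, threshold 0.05), tested on simulated data first. This scale shrinks differences of low genes. Genes averaging 1 FPKM or more over a table were kept: 10845 at 3 months (6 libraries) and 10894 at 4.5 months (9 libraries, 1 shared spread). No label states separate animals, so a p-value reflects only how far these samples differ, which may be technical. Read depth is unknown. Alternatives were other pseudocounts, filters and scalings, no variance trend, a replicate block, only the compared libraries, and leaving out each library. Promoters come from RefSeq (GRCm38.p6).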

Additional observations from a re-analysis of the deposited data

How the results depend on the processing

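Leaving out 1 library at a time gave between 6 and 24 calls among the 36 genes at 3 months (14 with all), between 6 and 16 for CK-p25 against CK (8), between 8 and 22 for CK-p25 PU.1 cKO against CK (13) and 0 in every fit for CK-p25 PU.1 cKO against CK-p25. At 3 months the highest count came without labelled control replicate 2 and the lowest, 6, without labelled control replicate 1 or labelled PU.1 cKO replicate 2 or 3; 8 passed without labelled PU.1 cKO replicate 1 and 9 without labelled control replicate 3. At 4.5 months the highest counts came without CK-p25 replicate 3, and 8 calls for CK-p25 PU.1 cKO remained without CK replicate 2 or 3. With only the compared libraries in the fit, 22 genes passed in that comparison, in which all CK-p25 libraries, replicate 3 included, leave the shared spread. The other alternatives gave 11 to 19, 6 to 9, 11 to 13 and 0 calls. Of 42 named differences under all alternatives, 633 values kept their direction and side of the threshold, 93 no longer passed, 4 newly passed and 3 reversed. The reversals were small values of CK-p25 PU.1 cKO against CK-p25: Srebf1 at -0.0022 and -0.0312 when the CK-p25 PU.1 cKO group lost replicate 1 or 2 (range over left-out libraries -0.0312 to 0.17), and Srebf2 at -0.21 when CK-p25 lost replicate 3 (range -0.21 to 0.36); the cause was not tested. Quantile normalization moved the share of higher genes among all calls from 41.1% to 53% at 3 months (51% with median centring), from 56.3% to 45.6% for CK-p25 and from 57.2% to 45.9% for CK-p25 PU.1 cKO against CK. Depth limits low genes such as Sqle, Acaca and Fads2 at 4.5 months, by an amount the tables do not give.

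Groups share replicate numbers in the titles. Same-numbered libraries deviated together with correlations of -0.05 to 0.17 at 3 months and -0.02 to 0.13 at 4.5 months, and 4 of 6 and 8 of 18 correlated best with their own number, so the numbers were not taken as pairs. With a replicate block 19 genes passed at 3 months (17 lower, 2 higher), 7 for CK-p25 and 13 for CK-p25 PU.1 cKO against CK, and 0 between the last groups.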
